A study of Homo sapiens with 12 samples.

Results

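The 10 genes described here encode core and accessory subunits of the SWI/SNF complexes: SMARCA4, SMARCA2, ARID1A, ARID1B, SMARCB1, SMARCC1, SMARCC2, SMARCD1, SMARCE1 and PBRM1. They were found by their symbols in the first column of the expression table, and 10 of 10 had a row among the 11529 genes. The study asked what loss of SMARCA4 does to triple-negative breast cancer (TNBC) cells. RNA was sequenced from 2 human cell lines, MDA-MB-468, a basal-like line, and MDA-MB-231, a mesenchymal-like line, with 3 control and 3 SMARCA4 knockout (KO) samples of each, 12 samples in all. The control samples were of the same line, with the genotype given as wild type. The KO samples were cells of each line transduced with a lentivirus (lentiCRISPR-v2) that carries Cas9 and 1 guide RNA against SMARCA4, then selected with puromycin and kept as polyclonal pools, so that unedited cells may remain. For protein measurements the study describes controls that received a non-targeting vector, apart from the parental cells. Titles of the sequenced controls say WT and their column names say Control, and the study uses both words for its RNA-seq comparison. Whether these samples had received that vector or were parental is therefore not clear from the sources. If they were parental cells, effects of transduction and selection cannot be told apart from those of the edit.

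SWI/SNF complexes use the energy of ATP to slide or evict nucleosomes and so open chromatin at enhancers and promoters. Each complex has 1 ATPase, either SMARCA4 (BRG1) or its paralog SMARCA2 (BRM). In the canonical BAF and PBAF forms the ATPase is set on a scaffold of SMARCC, SMARCD, SMARCB1 and SMARCE1 subunits. Canonical BAF adds ARID1A or ARID1B, and PBAF adds PBRM1 and ARID2 in their place. Subunits of these complexes are often mutated in cancers, and cells that have lost SMARCA4 or ARID1A are known for their dependence on the remaining paralog.

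The target site is shown because every KO value rests on it. The guide matched the plus strand of chromosome 19 in GRCh37 (hg19) once, at positions 11095933 to 11095952, and was followed there by the PAM TGG. The site lies at the start of a coding exon of SMARCA4, exon 3 of 35 in the MANE transcript (11095949 to 11096081), with 16 guide bases in the intron before it and 4 in the exon; the study's methods number it exon 4 on another transcript. Capitals mark the PAM in the first line and the exonic bases, PAM included, in the second.
guide and PAM: atggtccctctcgcagcccaTGG
same bases, exon in capitals: atggtccctctcgcagCCCATGG
The usual cut position of Cas9, 3 bases before the PAM, falls after 11095949, with 223 of the 4941 coding bases before it. The reads counted for SMARCA4 cover the whole gene, so a lower level is not a direct measure of editing, and edited transcripts that remain stable are counted as SMARCA4.

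Values are log2(FPKM + 1), where FPKM is fragments scaled to transcript length and to the size of the library, a level per length. They summed to between 673808 and 715537 FPKM per sample, the table gives no read counts, and the depth is therefore unknown. Of the line markers, 10 of 10 epithelial genes and 5 of 8 mesenchymal genes had a row. The summed epithelial level was 6016 to 6523 FPKM in MDA-MB-468 control and 6934 to 7370 in KO samples, and 1024 to 1581 and 1568 to 1748 in MDA-MB-231. The summed mesenchymal level was 15.5 to 20.7 and 15.3 to 20.8 FPKM in MDA-MB-468, and 1617 to 1844 and 1256 to 1370 in MDA-MB-231. The epithelial sums of MDA-MB-468 were higher in KO than in control samples and the mesenchymal sums of MDA-MB-231 lower, both without overlap. Keratins were the largest terms in MDA-MB-468, with mean KRT8 at 1604 FPKM in control and 2266 in KO samples. Means of KRT7, KRT18, KRT19, CLDN3, CLDN4 and GRHL2 were also higher in KO. Those of EPCAM (302 in control, 283 in KO), CDH1 (44.5, 37.9) and ESRP1 (54.4, 49.6) were lower. In MDA-MB-231, VIM was the largest term (1309, 998), FN1, AXL and SNAI2 were also lower, and ZEB1 was not (11.9, 12.1). The part of these sums in the results below was not tested. None of the listed leukocyte, endothelial or fibroblast markers had a row. Fewer cells of a kind and less RNA per cell cannot be told apart in such bulk samples. No label says whether replicates were separate cultures, so p-values measure only the spread between these samples, which may be technical.

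SMARCA4, the targeted ATPase (GRCh37 chromosome 19, 11071608 to 11190102, plus strand), was examined first. In MDA-MB-468 its level was 96.9, 97.4 and 101 FPKM in control replicates 1 to 3, and 39.7, 43.5 and 47.7 FPKM in the KO replicates. In MDA-MB-231 it was 67.5, 71.5 and 67.0 FPKM in control and 21.0, 23.9 and 22.6 FPKM in KO samples. Every KO sample lay below every control sample of its line, as the labels have it, and no KO sample was near 0. In MDA-MB-468 the KO mean was 44.3% of the control mean, and in MDA-MB-231 32.7%. By limma across all genes, SMARCA4 fell by 1.16 on the log2 scale in MDA-MB-468 (95% interval -1.35 to -0.97, adjusted p = 0.0137) and by 1.57 in MDA-MB-231 (-1.72 to -1.42, adjusted p = 0.00143). The fall was 0.41 log2 units smaller in MDA-MB-468 (95% interval of the difference 0.18 to 0.64, adjusted p = 0.027 by limma's interaction term). In MDA-MB-468 the adjusted p rose to 0.0696 without control replicate 2, 0.0565 without control replicate 3 and 0.0748 without KO replicate 2, while the difference stayed between -1.23 and -1.10 over all 6 omissions. The 49 genes of the table within 1 Mb of SMARCA4 had a median change of 0.11 in MDA-MB-468 but -0.08 in MDA-MB-231, and 0 of 49 fell as far as SMARCA4 in either line; this comparison was added after the values were seen.

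**Figure D1:**
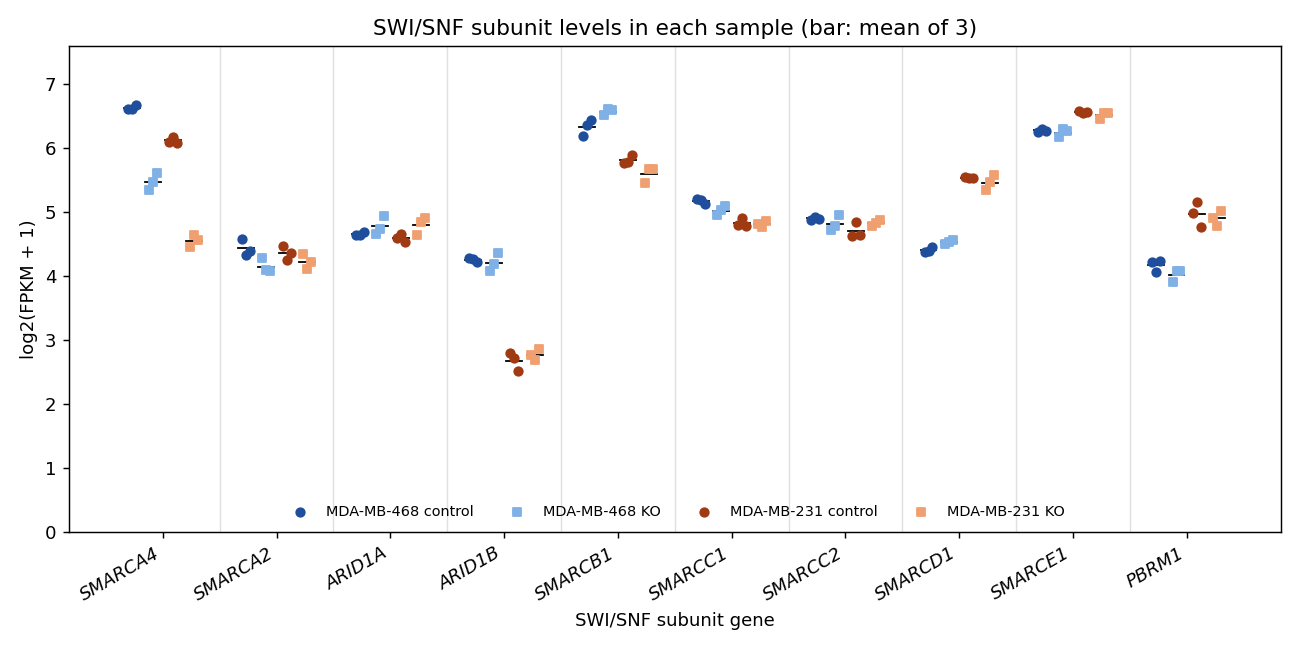
Level of each of the 10 subunit genes, as log2(FPKM + 1), in each of the 12 samples. Circles are control and squares KO samples, blue tones MDA-MB-468 and brown tones MDA-MB-231, in replicate order, and black bars are means of 3. SMARCA4 is the gene whose KO samples stand far below the controls in both lines, and ARID1B, SMARCD1 and PBRM1 differ most between the control samples of the lines.

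SMARCA2, the other ATPase (GRCh37 chromosome 9, 1980290 to 2193624, plus strand), had no higher mean in KO cells of either line. In MDA-MB-468 its level was 22.8, 19.2 and 19.9 FPKM in control and 18.4, 16.1 and 15.8 FPKM in KO samples, and the groups did not overlap, with all KO samples lower. In MDA-MB-231 it was 21.0, 18.1 and 19.6 FPKM in control and 19.3, 16.2 and 17.6 FPKM in KO samples, and the groups overlapped. The difference was -0.28 on the log2 scale in MDA-MB-468 (95% interval -0.51 to -0.06, adjusted p = 0.129 by limma), which did not pass the test. In MDA-MB-231 it was -0.14 (-0.35 to 0.07, adjusted p = 0.324). Both intervals are unadjusted for the number of genes, and their upper ends lie at -0.06 and 0.07. The difference between the lines was -0.15 (-0.43 to 0.14, adjusted p = 0.473).

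FPKM is per length, so the levels of both ATPase genes can be added. Their sum was 119 ± 2.36 FPKM (SD, n = 3) in MDA-MB-468 control and 60.4 ± 2.81 in KO samples, 50.7% of control. The sum in MDA-MB-231 was 88.3 ± 1.52 and 40.2 ± 0.151 FPKM, 45.5% of control. In MDA-MB-468, SMARCA4 lost 54.9 FPKM while SMARCA2 changed by -3.88, and in MDA-MB-231 SMARCA4 lost 46.2 while SMARCA2 changed by -1.86, both in the same direction as SMARCA4. The share of SMARCA2 in the sum was 17.3% ± 1.51 in control and 27.8% ± 3.46 in KO samples of MDA-MB-468, and 22.2% ± 1.81 and 44.1% ± 3.73 in those of MDA-MB-231 (SD, n = 3). SMARCA4 RNA remained the more abundant of the pair in each of the KO samples, at 2.61 times SMARCA2 against 4.78 in control of MDA-MB-468, and at 1.27 against 3.51 times in MDA-MB-231. By Western blot, the study found SMARCA4 protein considerably lower in KO cells of both lines, and the RNA levels here are no measure of it. The log2 ratio of SMARCA2 to SMARCA4 was higher in KO than in control samples by 0.88 (MDA-MB-468) and 1.47 (MDA-MB-231), with no overlap between KO and control in either line. The two-sided exact permutation p was 0.1 in each line, the smallest that 3 against 3 samples allow. SMARCA2 had no higher mean in KO cells, so the higher ratio and share came from the fall of SMARCA4, the targeted gene. They are no sign of a higher SMARCA2 level.

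**Figure D2:**
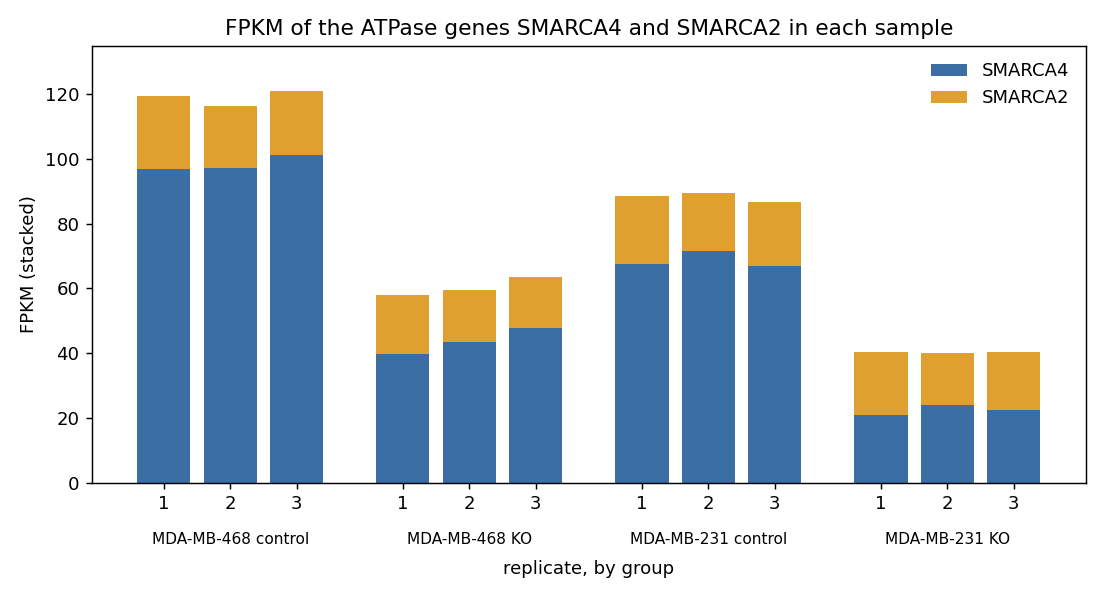
FPKM of SMARCA4 (blue) and SMARCA2 (orange), stacked from 0, in each sample of the 4 groups. The orange part was 15.8 to 18.4 FPKM in the MDA-MB-468 KO and 16.2 to 19.3 FPKM in the MDA-MB-231 KO samples, and the blue part stood at 39.7 to 47.7 and 21.0 to 23.9 FPKM, below every control sample of the same line.

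Among the 10 subunits, 1 passed adjusted p under 0.05 with a log2 change over 0.5 in MDA-MB-468 (background 2.14% of all genes tested), and 1 in MDA-MB-231 (background 3.7%), SMARCA4 in both. With no limit on size the count was again 1 in MDA-MB-468 (background 3.75%) and 1 in MDA-MB-231 (background 10.8%). At an unadjusted p under 0.05, 5 of 10 passed in MDA-MB-468 and 3 of 10 in MDA-MB-231, SMARCA4 included, against 2899 and 3596 of 11529 genes. The median change of the 10 genes was -0.07 (MDA-MB-468) and -0.06 (MDA-MB-231), beside 0.02 and -0.01 over all genes. KO and control samples did not overlap for 5 members in MDA-MB-468, 2 higher and 3 lower in KO, and for 3 members in MDA-MB-231, all lower, while 31.0% and 36.0% of all genes did not overlap. Apart from SMARCA4, members differed between KO and control by -0.28 to 0.25 log2 units.

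**Figure D3:**
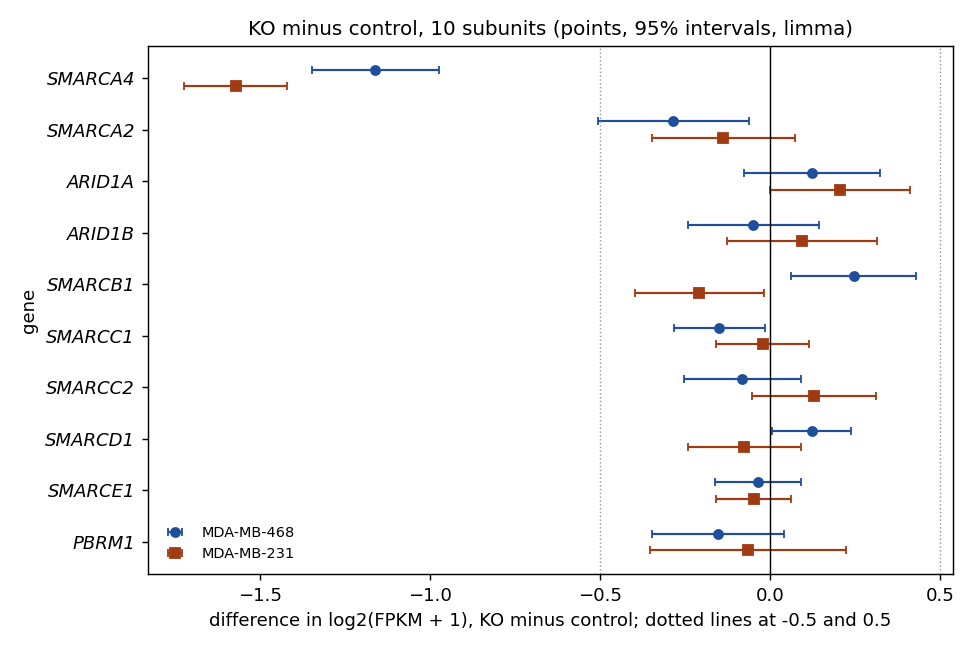
KO minus control in log2(FPKM + 1) for each of the 10 subunits, with 95% intervals from limma, circles for MDA-MB-468 and squares for MDA-MB-231; the dotted lines mark -0.5 and 0.5. SMARCA4 lies beyond -0.5 in both lines, at -1.16 and -1.57, and the other points lie between -0.28 and 0.25, with SMARCB1 on opposite sides of 0.

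SMARCB1 (SNF5, chromosome 22, 24129118 to 24180196, plus strand), a core scaffold subunit that holds the complex to the nucleosome and is lost in rhabdoid tumours, was, with SMARCA4, the member whose KO change passed the test of a difference between the lines. In MDA-MB-468 its level was 72.1, 81.0 and 85.4 FPKM in control and 90.8, 96.4 and 95.5 FPKM in KO samples. The MDA-MB-231 values were 53.2, 54.2 and 58.1 FPKM in control and 43.0, 50.1 and 50.0 FPKM in KO samples. All KO samples were thus higher than control in the one line and lower in the other, with no overlap in either. Neither change passed the test alone, at 0.25 in MDA-MB-468 (95% interval 0.06 to 0.43, adjusted p = 0.12 by limma) and -0.21 in MDA-MB-231 (-0.40 to -0.02, adjusted p = 0.133). The difference between these changes, 0.45 log2 units (0.20 to 0.71), passed with adjusted p = 0.0249. SMARCA4 and SMARCB1 were the 2 of 10 members that passed this test of the difference, against a background of 14.7% of all genes. The adjusted p of SMARCB1 was 0.0524 without MDA-MB-231 control replicate 3, 0.0537 without MDA-MB-468 control replicate 1, 0.0569 without MDA-MB-231 KO replicate 1 and 0.0618 without MDA-MB-468 KO replicate 2. That of SMARCA4 was 0.0532 without MDA-MB-231 control replicate 2, 0.0571 without MDA-MB-468 control replicate 1, 0.0559 without MDA-MB-468 control replicate 2, 0.0668 without MDA-MB-231 KO replicate 1, 0.0605 without MDA-MB-468 KO replicate 2 and 0.0526 without MDA-MB-468 KO replicate 3. Among the exonic bases of SMARCB1, 17.7% are shared with DERL3 on the opposite strand, and whether the authors counted reads by strand is not given in the sources used here.

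ARID1A and ARID1B are mutually exclusive DNA-binding subunits that define the canonical BAF complex, and ARID1A is among the most often mutated SWI/SNF genes. ARID1A was measured at 23.9, 23.8 and 24.8 FPKM in control and 24.3, 25.6 and 29.7 FPKM in KO samples of MDA-MB-468. The MDA-MB-231 values were 23.1, 24.3 and 22.1 FPKM in control and 24.0, 27.8 and 29.1 FPKM in KO samples. The groups overlapped in both lines, and the log2 differences of 0.12 (95% interval -0.08 to 0.32, adjusted p = 0.394) and 0.21 (0.00 to 0.41, adjusted p = 0.159) did not pass. ARID1B KO samples were at 15.9, 17.2 and 19.4 FPKM in MDA-MB-468, around the control values of 17.7 to 18.4 FPKM. In MDA-MB-231 they were at 5.78, 5.43 and 6.27 FPKM, beside 4.73 to 5.95 FPKM in control. The log2 differences of ARID1B were -0.05 (-0.24 to 0.14) and 0.09 (-0.13 to 0.31), with overlap in both lines. ARID1A lies on chromosome 1 (27019727 to 27108595) and ARID1B on chromosome 6 (157097154 to 157531913), both on the plus strand. The log2 ratio of ARID1B to ARID1A was 0.18 lower in MDA-MB-468 KO than in control samples, without overlap (exact permutation p = 0.1, the smallest possible, 0.2 adjusted over the 4 tests of the 2 paralog pairs). In MDA-MB-231 it was 0.10 lower, with overlap (exact permutation p = 0.5, adjusted 0.5).

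SMARCC1 (BAF155) and SMARCC2 (BAF170) form the dimer on which the complex is first assembled. SMARCC1 was measured at 35.8, 35.6 and 33.9 FPKM in control and 29.97, 31.7 and 33.0 FPKM in KO samples of MDA-MB-468, where all KO samples were lower. The difference of -0.15 (95% interval -0.28 to -0.02, adjusted p = 0.164 by limma) did not pass, and in MDA-MB-231 it was -0.02 (-0.16 to 0.11) with overlapping groups. SMARCC2 was measured at 28.5 to 29.4 FPKM in control and 25.4 to 29.9 FPKM in KO samples of MDA-MB-468, and at 23.7 to 27.8 and 26.5 to 28.3 FPKM in MDA-MB-231. It differed by -0.08 (-0.25 to 0.09) and 0.13 (-0.05 to 0.31), with overlap in both lines. The log2 ratio of SMARCC2 to SMARCC1 was 0.16 higher in MDA-MB-231 KO than in control samples, without overlap (exact permutation p = 0.1, adjusted 0.2), and 0.07 higher in MDA-MB-468, with overlap (exact permutation p = 0.2, adjusted 0.267). Exons of SMARCC2 share 7.83% of their bases with MYL6, a myosin light chain gene on the opposite strand.

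SMARCD1 (BAF60A), a subunit that links the complex to transcription factors, was measured at 19.7, 20.0 and 21.0 FPKM in control and 21.5, 22.1 and 22.7 FPKM in KO samples of MDA-MB-468, with all KO samples higher. The difference of 0.12 (95% interval 0.01 to 0.24, adjusted p = 0.183 by limma) did not pass, and in MDA-MB-231 it was -0.08 (-0.24 to 0.09) with overlap. SMARCE1 (BAF57), the HMG-domain subunit, differed by -0.04 (-0.16 to 0.09) and -0.05 (-0.16 to 0.06), the narrowest intervals among the members in MDA-MB-231. All SMARCE1 KO samples of MDA-MB-231 lay below control, at 87.1, 92.4 and 92.4 against 95.04, 92.5 and 93.8 FPKM, although the nearest values hardly differed. SMARCE1 has 7 annotated pseudogenes, and 18.9% of its exonic bases overlap another annotated gene on the same strand, so its level is uncertain. PBRM1 (BAF180), the bromodomain subunit that defines PBAF, was measured at 15.6 to 17.9 FPKM in control and 13.98 to 15.9 FPKM in KO samples of MDA-MB-468, and at 26.2 to 34.6 and 26.4 to 31.5 FPKM in MDA-MB-231. It differed by -0.15 (-0.35 to 0.04, adjusted p = 0.287) and -0.07 (-0.35 to 0.22, adjusted p = 0.746), with overlap in both lines.

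The subunits of the list that were not chosen were examined next, and 14 of 21 had a row. None of the 14 was called in either line, while 3 (MDA-MB-468) and 5 (MDA-MB-231) passed an unadjusted p under 0.05 by limma, beside 2899 and 3596 of the 11529 genes at that level and 2.14% and 3.7% of them called. Their median change was -0.03 (MDA-MB-468) and -0.04 (MDA-MB-231). With no limit on size, 1 of the 14 passed in each line, against 3.75% (MDA-MB-468) and 10.8% (MDA-MB-231) of all genes. BCL7B, a small accessory subunit, was higher in MDA-MB-468 KO cells by 0.37 (adjusted p = 0.0379). Its values there were 5.39, 5.49 and 5.57 in control and 5.85, 5.86 and 5.85 in KO samples on the log2 scale, and its adjusted p was 0.0547 to 0.143 when any 1 of the 6 samples was left out and 0.0695 in a fit blocked by replicate number. PHF10 (BAF45A), the PHD-finger subunit of PBAF, was lower in MDA-MB-231 KO cells by 0.35 (difference -0.35, adjusted p = 0.0255). Its values were 6.06, 5.92 and 6.07 in control and 5.65, 5.64 and 5.70 in KO samples. Its adjusted p was 0.0384 without control replicate 2 but 0.0563 to 0.101 without any other single sample, and 0.0864 in a fit blocked by replicate number. In MDA-MB-468, PHF10 differed by -0.21 (adjusted p = 0.0913), again with all KO samples lower. The other named subunits did not pass: ACTB, the actin subunit, at 0.40 in MDA-MB-468 (adjusted p = 0.0907), GLTSCR1 (BICRA), of the non-canonical form, at 0.30 in MDA-MB-231 (adjusted p = 0.106), and ARID2, the PBAF counterpart of ARID1A, at 0.26 in MDA-MB-231 (adjusted p = 0.0811). ACTB has 12 annotated pseudogenes and PHF10 has 1. Mean ACTB was 3275 FPKM in MDA-MB-468 control samples, far above the other subunits, and this level does not tell how much of it serves these complexes.

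**Figure D4:**
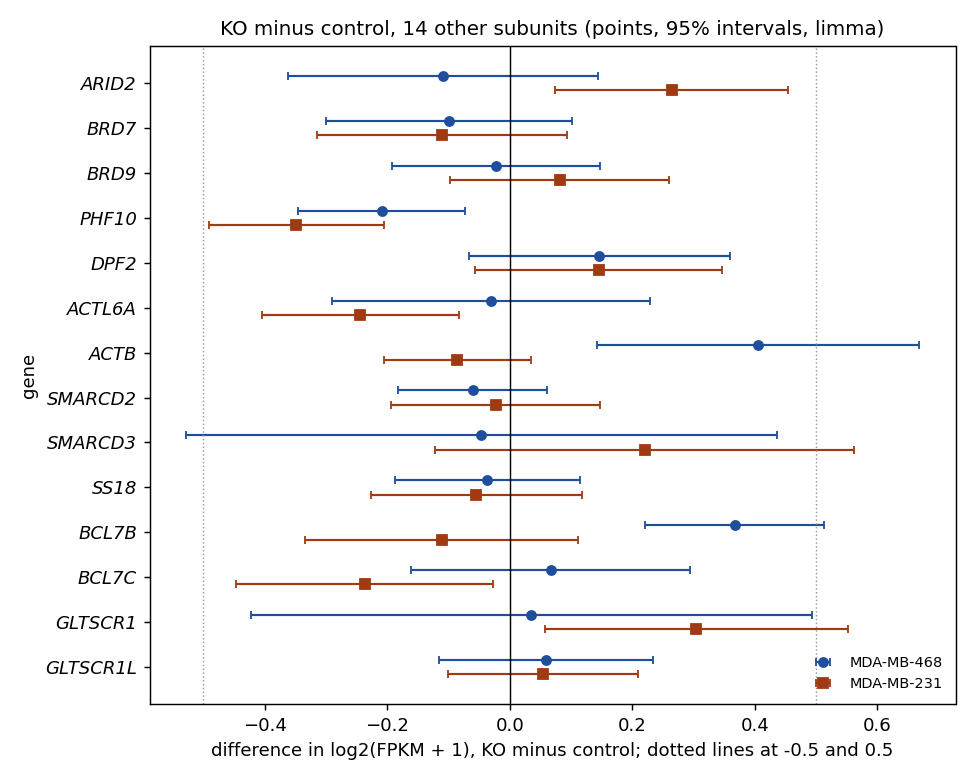
KO minus control in log2(FPKM + 1) for the 14 other SWI/SNF subunits of the table, with 95% intervals from limma, circles for MDA-MB-468 and squares for MDA-MB-231; dotted lines mark -0.5 and 0.5. All points lie between -0.35 and 0.40, with PHF10 the lowest in both lines and ACTB and BCL7B the highest in MDA-MB-468.

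ATPases of other remodeler families, which work in complexes of their own, were set beside SMARCA4. Of 21 listed, 17 had a row and none was called in either line; 2 (MDA-MB-468) and 4 (MDA-MB-231) passed an unadjusted p under 0.05 by limma, against the same 2899 and 3596 of 11529 genes. Their log2 changes ran from -0.37 to 0.15 in MDA-MB-468 and from -0.22 to 0.31 in MDA-MB-231, so that SMARCA4 stood apart from them in size in both lines. At any size, CHD1, picked out after its values were seen, was lower in MDA-MB-231 KO cells by 0.22 (difference -0.22, adjusted p = 0.0442). It was the 1 of 17 that passed there, while 10.8% of all genes passed at any size.

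The levels before KO showed larger differences between members and lines. In MDA-MB-468 control cells the order of mean levels was SMARCA4 (98.5 FPKM), SMARCB1 (79.5), SMARCE1 (76.7), SMARCC1 (35.1), SMARCC2 (28.9), ARID1A (24.2), SMARCA2 (20.6), SMARCD1 (20.2), ARID1B (18.1) and PBRM1 (17.1). The ranges of SMARCB1 and SMARCE1, of SMARCA2 and SMARCD1, and of ARID1B and PBRM1 overlapped. In MDA-MB-231 control cells it was SMARCE1 (93.8 FPKM), SMARCA4 (68.7), SMARCB1 (55.2), SMARCD1 (45.5), PBRM1 (30.5), SMARCC1 (27.5), SMARCC2 (25.1), ARID1A (23.2), SMARCA2 (19.6) and ARID1B (5.42). From PBRM1 to ARID1A each range overlapped the next. SMARCA4 thus had rank 1 among control levels of MDA-MB-468, rank 2 among those of MDA-MB-231, and ranks 3 and 8 in the KO cells. In MDA-MB-231 KO cells it stood between ARID1A and SMARCA2 and overlapped neither.

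By limma, 5 of 10 members differed between the control lines by more than 0.5 log2 units with adjusted p under 0.05, against a background of 64.1% of all genes. ARID1B was 18.4, 18.2 and 17.7 FPKM in the control samples of MDA-MB-468, against 5.95, 5.57 and 4.73 FPKM in those of MDA-MB-231, a log2 difference of 1.58 (95% interval 1.38 to 1.78, adjusted p = 9.42e-07). SMARCD1 (chromosome 12, 50478983 to 50494490, plus strand) went the other way, at 19.7, 20.0 and 21.0 against 45.6, 45.4 and 45.4 FPKM, a difference of -1.13 (-1.28 to -0.98, adjusted p = 1.1e-06). PBRM1 (chromosome 3, 52579368 to 52719933, minus strand) was also lower in MDA-MB-468, at 17.7, 15.6 and 17.9 against 30.8, 34.6 and 26.2 FPKM, a difference of -0.80 (-1.05 to -0.54, adjusted p = 0.00022). None of these 3 genes had overlapping samples between the lines. SMARCA4 and SMARCB1 were higher in MDA-MB-468, by 0.51 (0.36 to 0.67) and 0.52 (0.32 to 0.71), and both fell under the limit of 0.5 without MDA-MB-468 control replicate 3, at 0.49 and 0.46. SMARCB1 did so also without MDA-MB-231 control replicate 1 (0.49), and SMARCA4 without MDA-MB-231 control replicate 3 (0.50 after rounding). SMARCC1 (0.34) and SMARCE1 (-0.29) passed the adjusted p alone, and SMARCC2 (0.20), SMARCA2 (0.07) and ARID1A (0.06) did not.

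Related subunits were then compared by their share of the summed FPKM. Paralogs that take the same place were ARID1A with ARID1B, the SMARCD genes and the SMARCC genes. ARID1B made up 42.8% ± 1.05 of the summed ARID1A and ARID1B level in MDA-MB-468 control and 18.9% ± 1.45 in MDA-MB-231 control samples (SD, n = 3). SMARCD1 made up 26.9% ± 1.46 of the SMARCD1, SMARCD2 and SMARCD3 sum in MDA-MB-468, against 52.6% ± 2.06 in MDA-MB-231, where the sums were 75.3 ± 3.09 and 86.4 ± 3.20 FPKM. PBRM1, which is no paralog of ARID1A or ARID1B, made up 28.7% ± 1.41 of the PBRM1, ARID1A and ARID1B sum in MDA-MB-468. Its share was 51.5% ± 2.12 in MDA-MB-231, and the sums were 59.4 ± 1.47 and 59.2 ± 5.70 FPKM. ARID2, the PBAF counterpart of ARID1A, is not in these sums and was at 6.17 and 3.89 FPKM in the controls. SMARCC2 made up 45.1% ± 0.754 and 47.7% ± 1.01 of the SMARCC pair. In KO samples the corresponding shares were 39.8% ± 0.353 and 17.8% ± 1.54 for ARID1B, 29.6% ± 1.07 and 50.7% ± 0.916 for SMARCD1, 25.8% ± 1.26 and 47.0% ± 2.57 for PBRM1, and 46.3% ± 1.06 and 50.4% ± 0.894 for SMARCC2. The difference between the lines in the shares of ARID1B, SMARCD1 and PBRM1 was thus larger than that between KO and control within a line.

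Genes whose pattern was most like that of an ATPase gene were named by the distance between their values and its own over all 12 samples, each gene centred on the control mean of the line, as the root mean square in log2 units, among 10186 genes with a mean log2 level over 2. Among the 3 nearest to SMARCA4 were SPDEF, an ETS transcription factor of epithelial cells (distance 0.355, with a KO change of -0.68 in MDA-MB-468, adjusted p = 0.0641, against -1.48 in MDA-MB-231, adjusted p = 0.0219), and GALNT3, a glycosyltransferase (distance 0.37, with -0.55, adjusted p = 0.0329, and -1.20, adjusted p = 0.00781). Nearest to SMARCA2 were UFL1 (0.0564), HSD17B12 (0.0656) and ANO10 (0.0656). None of these passed in either line (adjusted p 0.145 to 0.365 by limma). The root mean square of SMARCA2's own centred values was 0.184, against 0.979 for SMARCA4, so genes that hardly change also lie near SMARCA2. These distances come from the same samples and are a description.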

How the data were processed

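RNA-seq libraries (TruSeq stranded mRNA) of 12 samples were examined. Before deposit, the authors ran Trimmomatic on the reads, STAR against hg19 and RSEM for levels per gene, and the deposited values are log2(FPKM + 1) of 11529 genes. Genes with a mean or SD of FPKM under 1 had been removed before; in the table the smallest mean was 1.07 and the smallest SD 1.00, so genes that vary little are under-represented. STAR, RSEM and hg19 are also named in the submitters' processing notes. Strand use in counting is not given in the sources used here. Depth is unknown, so no counting interval was computed.

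Each cell line was fitted with limma 3.58.1 (R 4.3.3) on the deposited log2 values of all genes, 3 KO against 3 control samples, with empirical Bayes moderation and no trend. P-values were adjusted by Benjamini-Hochberg over all 11529 genes, and a gene was called at adjusted p under 0.05 and an absolute log2 difference over 0.5. The difference of the KO changes was the interaction contrast over 12 samples, called at adjusted p under 0.05. Control lines were compared on their 6 samples. Fold changes are on the log2(FPKM + 1) scale, with a pseudocount of 1, which understates those of low genes. FPKM for ratios and shares was recovered by removing the log and the 1, and ratios were tested by two-sided exact permutation. The step that fits all genes was tested on simulated data.

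The members and lists were chosen with earlier results of these data known. Named were the members, among other subunits those called or among the 3 with the largest change in either line, called remodeler ATPases, and the 3 genes most like SMARCA4 and SMARCA2, of which 1 is not reported here. Positions come from GENCODE 44 mapped to GRCh37, where neighbours within 1 Mb were also counted; 94.0% of symbols matched. In MDA-MB-468, samples with the same replicate number in their titles had correlated deviations (0.25, 0.16 and 0.12). The replicate block used these title numbers, and no label says that they pair samples. In MDA-MB-231 the values were -0.05, 0.07 and -0.11. Samples with unlike numbers reached 0.13 in MDA-MB-468 (control 3 with KO 2) and 0.22 in MDA-MB-231 (control 1 with KO 3). The correlations therefore do not settle whether samples are paired. The sample descriptions also carry a number after the letter p, from 26 to 28 in MDA-MB-468 control and 25 to 27 in KO samples. In MDA-MB-231 it runs from 10 to 12 in both groups. For MDA-MB-468 this number pairs the samples differently from the titles (correlations -0.23 and 0.03), and what it counts was not established. No columns were identical. DPF1, DPF3, ACTL6B, SS18L1, BCL7A, BCL11A and BCL11B were not analysed here.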

Additional observations from a re-analysis of the deposited data

Results flagged for a closer look

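SMARCA4 and SMARCB1 were singled out because the KO change differed between the cell lines by the interaction test of limma. The change in MDA-MB-468 minus that in MDA-MB-231 was 0.41 log2 units for SMARCA4 (adjusted p = 0.027), where both changes were falls, and 0.45 for SMARCB1 (adjusted p = 0.0249), where the samples moved in opposite directions.

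Of the other SWI/SNF subunits, ACTB (0.49, adjusted p = 0.0249) and BCL7B (0.48, adjusted p = 0.0211) differed in the same direction. In MDA-MB-468 they were higher in KO than in control samples, by 0.40 and 0.37. In MDA-MB-231 the differences were -0.09 (adjusted p = 0.29 by limma) and -0.11 (adjusted p = 0.451), with overlapping groups. Of the remodeler ATPases, CHD6, picked out after its values were seen, differed by -0.64 (adjusted p = 0.00577), with all KO samples lower than control in MDA-MB-468 (-0.37) and all higher in MDA-MB-231 (0.27). Against these, 14.7% of all genes passed this test.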

How the results depend on the processing

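SMARCA4 was called as 1 of 10 members in MDA-MB-468 under a pseudocount of 0.1, a filter at a mean level over 2, an intensity trend, 75th percentile scaling, quantile normalization, 1 fit of all 12 samples and a replicate block by title number (241 genes called in all, against 247). With a replicate block by the number in the descriptions the count was 0 (SMARCA4 adjusted p = 0.14), and leaving out 1 replicate gave 0 to 1. In MDA-MB-231 the count was 1 under the same alternatives and 1 without any replicate, but 0 with the replicate block (SMARCA4 -1.57, adjusted p = 0.052, PHF10 -0.35, adjusted p = 0.0864), where the samples share only a number. Members whose KO change differed between the lines numbered 2 under every scaling and with the replicate block, and 0 to 2 without 1 replicate. Members that differed between the control lines numbered 5, also with a replicate block chosen after the data were seen, and 3 to 5 without 1 replicate. The ratio of SMARCA2 to SMARCA4 was higher in KO by 0.74 to 0.98 in MDA-MB-468 and by 1.36 to 1.57 in MDA-MB-231 without 1 replicate, and was higher in KO for 3 of 3 same-numbered pairs in each line. Its denominator is the targeted gene, so these values do not speak for a change of SMARCA2.

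Over 715 alternative values of single genes, 682 kept their direction and their side of the threshold, 19 kept the direction and lost the call, and 14 changed sign, all of the last for differences near 0. SMARCC1 in MDA-MB-231 was at 0.0135 with 75th percentile scaling, and the line difference of the SMARCE1 change was at -0.0348 with that scaling and -0.0419 with quantile normalization. Without 1 replicate, ranges that spanned 0 were -0.12 to 0.0134 for ARID1B, -0.0612 to 0.0025 for SMARCE1 and -0.15 to 0.20 for GLTSCR1 in MDA-MB-468, -0.0479 to 0.0183 for SMARCC1 and -0.17 to 0.0249 for PBRM1 in MDA-MB-231, -0.0147 to 0.0513 for SMARCE1 and -0.18 to 0.014 for PBRM1 in the difference between lines, and -0.00059 to 0.12 for SMARCA2 between the controls. The scalings moved the median of all genes by less than 0.1 log2 units. The cause of these shifts was not tested. Read depth, and so the precision of single values, is not known.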

Other observations

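Levels of neighbouring genes were set beside the line differences of the members, as a comparison added after the values were seen. The 31 genes of the table within 1 Mb of PBRM1 had a median control difference, MDA-MB-468 minus MDA-MB-231, of -0.62 log2 units, and PBRM1 itself was at -0.80. The 49 neighbours of SMARCA4 had a median of 0.87, and SMARCA4 was at 0.51. SMARCC1, also on chromosome 3, was at 0.34 while its 26 neighbours had a median of -0.76, and 23 of 26 were lower than SMARCC1. SMARCD1 was at -1.13, and 1 of its 23 neighbours was lower still (median -0.40). Copy number was not measured here.

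For the KO change in MDA-MB-231, SMARCB1 was at -0.21 and 0 of its 17 neighbours were lower (median 0.19). In MDA-MB-468, where SMARCB1 was at 0.25, 4 of 17 neighbours were higher (median 0.09).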
